A study of Arabidopsis thaliana with 18 samples.

Results

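Anthocyanins, the red and purple flavonoid pigments of plant vacuoles, accumulate in Arabidopsis leaves in the cold and in strong light. They branch off the flavonoid pathway where dihydroflavonols are reduced, are turned into coloured anthocyanidins, and are then decorated with sugars and acyl groups, which stabilize the pigment for storage in the vacuole. The transcripts described here are those of 4 enzymes of these late steps, found by symbol or locus in the probe table of the array: DFR (At5g42800, chromosome 5), UF3GT (At5g54060, chromosome 5), At4g14090 (chromosome 4) and AT5MAT (At3g29590, chromosome 3). DFR is dihydroflavonol reductase, the first enzyme committed to the branch. UF3GT carries the symbol of a flavonoid 3-O-glucosyltransferase and belongs to the glycosyltransferases that extend the sugar at the 3 position of the anthocyanin. At4g14090 encodes an anthocyanidin glucosyltransferase, which adds glucose at the 5 position, and AT5MAT adds a malonyl group to that glucose. They are 4 of 13286 genes with a locus on the array, and each had 1 of the 22810 probe sets.

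The arrays (Affymetrix ATH1, RMA log2 values) measured leaves 9 to 11 of plants grown at 22°C in the day for 4 weeks. The plants were vte2, a mutant that lacks homogentisate phytyl transferase and makes no tocopherols (vitamin E), and Col, its wild type. Leaves were taken after 48 and 120 h of low temperature (LT) treatment at 7°C and without it (0 h), with 3 arrays in each of the 6 groups. Each array held RNA of 3 plants harvested together 1 h into the light. The labels give no allele for vte2.

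Several properties of the arrays bear on every result. Replicate 3 of vte2 and replicate 3 of Col at 0 h stood apart from the other replicates: over all probe sets, their shifts correlated at 0.791 (a description, since probe sets depend on each other), and 1595 of them moved over 2-fold the same way in both, so values are also given without these arrays. The gene mutated in vte2 is not named in the probe table and was not used to check the labels. Of the 77 probe sets that differed between vte2 and Col at 48 h, 71 had the opposite sign at 120 h, 51 passed the test with the opposite sign and 0 with the same sign. The study describes the response of vte2 as a lasting one. Arrays at 120 h are therefore called by their labels, and no direction between genotypes at 120 h is taken as settled. The median of all probe sets lay between 4.98 and 5.18 on every array. Of the leaf markers, 1 of 10 was named, RCA (Rubisco activase), at 12.5 to 13.6 on all arrays, and of the markers of other organs 1 of 7, PYK10 of roots, at 3.14 to 3.77. RCA was lower at 48 h than at 0 h, by -0.74 (log2) in vte2 and -0.54 in Col, and its part in the results was not tested. In whole leaves, fewer cells that express a gene and less RNA per cell cannot be told apart.

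After 48 h at LT all 4 enzymes had risen, both in vte2 and in Col. DFR had log2 values of 9.96, 9.85 and 10.22 in vte2 at 48 h, against 3.85, 4.26 and 5.003 in vte2 at 0 h. In Col, DFR had 9.19, 9.72 and 9.66 at 48 h, against 4.52, 4.34 and 3.76 at 0 h. Every 48 h array thus lay more than 4 log2 units above every untreated array of either genotype. The change of DFR was 5.64 in vte2 (log2, standard error, SE, 0.28; limma adjusted p = 2.34e-09), a 49.9-fold rise, and 5.32 in Col (SE 0.28, adjusted p = 4.04e-09), a 39.9-fold rise. Replicate spread was small beside these differences. The lowest untreated array of each genotype (3.85 in vte2, 3.76 in Col) lay within the range of BAN of seed coats (3.41 to 3.95). The size of the differences of DFR from 0 h, here and at 120 h, is therefore uncertain.

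UF3GT, the enzyme of the 3 position, had log2 values of 9.37, 9.40 and 9.23 in vte2 at 48 h, against 4.87, 5.54 and 5.89 in vte2 at 0 h. In Col it had 8.94, 9.32 and 9.21 at 48 h, against 5.29, 4.50 and 4.33 at 0 h. Treated and untreated arrays were again far apart, and the untreated arrays were the more spread. UF3GT rose by 3.90 in vte2 (log2, SE 0.26, limma adjusted p = 2.97e-08) and by 4.45 in Col (SE 0.26, adjusted p = 1.09e-08).

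At4g14090, the glucosyltransferase of the 5 position, had log2 values of 9.09, 9.36 and 8.91 in vte2 at 48 h, against 4.30, 5.18 and 6.56 in vte2 at 0 h. In Col it had 8.93, 9.31 and 9.12 at 48 h, against 4.16, 4.34 and 5.94 at 0 h. The highest untreated array of each genotype was replicate 3, which lay 1.82 above the mean of the other replicates in vte2 and 1.69 above it in Col. At4g14090 rose by 3.78 in vte2 (log2, SE 0.49, limma adjusted p = 1.84e-05) and by 4.31 in Col (SE 0.49, adjusted p = 5.90e-06). Without both replicate 3 arrays at 0 h the rises were 4.38 in vte2 and 4.87 in Col.

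AT5MAT, the malonyltransferase, had log2 values of 6.60, 6.29 and 6.38 in vte2 at 48 h, against 3.81, 3.56 and 3.57 in vte2 at 0 h. In Col it had 5.81, 6.12 and 6.29 at 48 h, against 3.55, 3.82 and 3.70 at 0 h. Treated and untreated arrays were clearly apart. AT5MAT rose by 2.78 in vte2 (log2, SE 0.16, limma adjusted p = 9.36e-09) and by 2.38 in Col (SE 0.16, adjusted p = 4.56e-08). Its untreated values were as low as those of markers of other tissues on these leaf arrays, PYK10 of roots (3.14 to 3.77) and BAN of seed coats (3.41 to 3.95), so its level at 0 h was not shown to be above background. Its differences from 0 h, their ranks and the differences between its changes from 0 h are set against this level, and their size is uncertain for that reason.

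The background was wide: of all probe sets, 17.2% rose in vte2 and 16.1% in Col at 48 h. The 48 and 0 h arrays of all 4 enzymes did not overlap, as was so in this direction for 19.2% of all probe sets in vte2 and 18.4% in Col. By size, the 4 enzymes stood near the top. Their ranks among the 22810 differences, from the highest, were 15 for DFR, 101 for UF3GT, 110 for At4g14090 and 319 for AT5MAT in vte2. In Col they were 15, 36, 40 and 352 in the same gene order. The median difference of the 4 genes was 3.84 in vte2 and 4.38 in Col, and that of all probe sets was -0.06 in vte2 and -0.08 in Col. All 4 calls held in both genotypes under each of the 26 alternatives that kept the labels as deposited, and the lowest value among them was 2.17, for AT5MAT in Col.

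**Figure D1:**
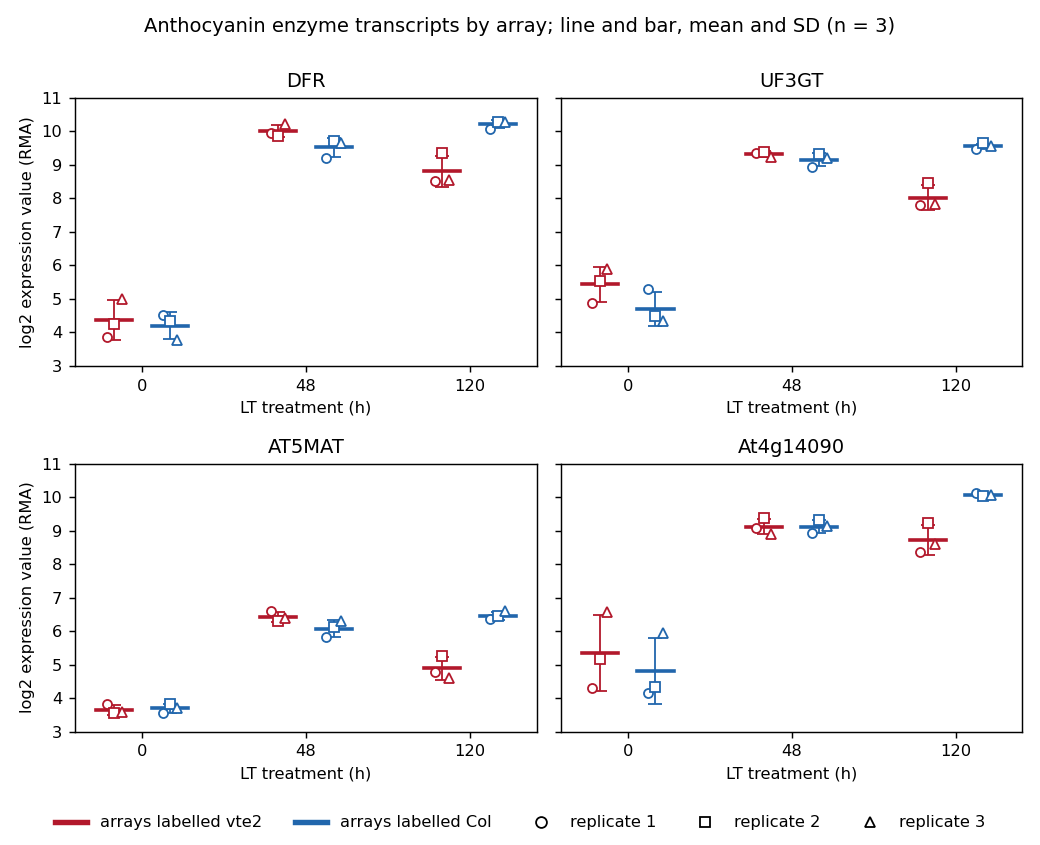
Log2 expression values (RMA, y axis) of DFR, UF3GT, AT5MAT and At4g14090 on each of the 18 arrays against hours of LT treatment; symbols give the replicate, red the arrays labelled vte2 and blue those labelled Col, with the mean as a line and the SD as a bar (n = 3). Every LT-treated array lay above every 0 h array of the same gene, and the vte2 and Col arrays overlapped at 0 h. At 120 h the arrays labelled vte2 lay below those labelled Col in all 4 panels, as for 18.2% of all probe sets.

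The same 4 genes remained above their 0 h levels at 120 h, under either label. DFR had log2 values of 8.53, 9.35 and 8.56 on the arrays labelled vte2 at 120 h and of 10.08, 10.28 and 10.28 on those labelled Col. UF3GT had 7.80, 8.45 and 7.83 on the arrays labelled vte2 and 9.49, 9.64 and 9.55 on those labelled Col. No array at 120 h reached down to the 0 h range of these genes. At4g14090 had 8.35, 9.23 and 8.59 on the arrays labelled vte2 and 10.11, 10.03 and 10.06 on those labelled Col. AT5MAT had 4.79, 5.27 and 4.60 on the arrays labelled vte2 and 6.35, 6.45 and 6.59 on those labelled Col. For each gene all arrays labelled Col were higher than all arrays labelled vte2, as was so for 18.2% of all probe sets. For AT5MAT the arrays labelled vte2 came closest to the untreated level.

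Against 0 h, all 4 genes passed the test on the arrays labelled vte2 at 120 h, where 14% of all probe sets were higher, and on those labelled Col, where 16.3% were. Their 120 and 0 h arrays did not overlap, as for 18.3% of all probe sets under the vte2 label and 21.2% under the Col label in this direction. On the arrays labelled vte2, DFR was 4.44 higher (log2, SE 0.28, limma adjusted p = 9.11e-08) and AT5MAT 1.24 higher (SE 0.16, adjusted p = 5.58e-05). UF3GT was 2.59 and At4g14090 3.38 higher there, and the ranks of the 4 genes ran from 7 for DFR to 759 for AT5MAT. On the arrays labelled Col, DFR was 6.01 higher (SE 0.28, limma adjusted p = 3.80e-09), a 64.4-fold difference with rank 6, and At4g14090 was 5.26 higher with rank 11. UF3GT was 4.85 and AT5MAT 2.77 higher on these arrays, with ranks 17 and 111. These calls also held with the genotype labels exchanged at 120 h, an alternative chosen with the pattern of the labels known. The comparisons at 48 and 120 h share the 0 h arrays of their genotype.

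The later part of the treatment, 120 h against 48 h, was compared within each label. On the arrays labelled vte2, DFR fell by 1.20 (log2, SE 0.28, limma adjusted p = 0.00543), UF3GT fell by 1.31 (SE 0.26, adjusted p = 0.00168) and AT5MAT fell by 1.54 (SE 0.16, adjusted p = 9.11e-06) at 120 h relative to vte2 at 48 h. That is 3 of 4 genes, where 11% of all probe sets fell. The leaf marker RCA moved in the same comparison, by 0.71 (log2, adjusted p = 1.51e-04), and its part here was not tested. At4g14090 differed by -0.40 (interval -1.43 to 0.64, adjusted p = 0.667) and its 48 and 120 h arrays overlapped.

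On the arrays labelled Col, none of the 4 genes passed the test between 48 and 120 h (0 of 4 after adjustment and 2 of 4, DFR and AT5MAT, at an unadjusted p under 0.05 from limma), where 9.48% of all probe sets rose. The differences were 0.69 for DFR (interval 0.08 to 1.3, adjusted p = 0.121), 0.40 for UF3GT (adjusted p = 0.387), 0.95 for At4g14090 (interval -0.09 to 1.98, adjusted p = 0.234) and 0.39 for AT5MAT (adjusted p = 0.137). For all 4, every array labelled Col at 120 h nevertheless lay above every Col array at 48 h, as did those of 23.5% of all probe sets. The outcome of this comparison turned on the spread used: with the spread of these 6 arrays alone, 3 of the 4 passed (DFR at adjusted p = 0.0123, UF3GT at 0.0373 and At4g14090 at 9.34e-04, from limma), and without both replicate 3 arrays at 0 h, 2 passed (DFR and At4g14090). More probe sets passed in general in these fits, where 15.3% of all probe sets rose with the 6 arrays alone and 14.7% without the replicate 3 arrays.

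Before LT treatment the test did not tell the genotypes apart for any of these transcripts. None of the 4 genes passed the test at 0 h, where 0.00877% of all probe sets did. The vte2 minus Col differences were 0.17 for DFR (log2, interval -0.44 to 0.77), 0.73 for UF3GT (interval 0.17 to 1.29), 0.53 for At4g14090 (interval -0.50 to 1.57) and -0.04 for AT5MAT (interval -0.40 to 0.31), with adjusted p between 0.445 and 0.977 from limma. UF3GT alone (1 of 4) was under 0.05 before adjustment. Its vte2 and Col arrays overlapped, and without both replicate 3 arrays the difference was 0.31 (adjusted p = 0.575). For DFR the replicate 3 arrays lay on opposite sides, 0.95 above the mean of the other replicates in vte2 and 0.67 below it in Col (-0.67), and without them the difference was -0.37.

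At 48 h, when all 4 genes had risen, none of them passed the test between vte2 and Col, and no unadjusted p was under 0.05 (0 of 4; 0.338% of all probe sets passed after adjustment). DFR averaged 10.01 ± 0.19 in vte2 and 9.52 ± 0.29 in Col (log2, SD, n = 3 each), a difference of 0.49 (interval -0.12 to 1.09, limma adjusted p = 0.999), and its arrays did not overlap, which was so for 7.82% of all probe sets in this direction. AT5MAT averaged 6.42 ± 0.16 in vte2 and 6.08 ± 0.25 in Col, a difference of 0.35 (interval -0.01 to 0.70). UF3GT differed by 0.18 (interval -0.39 to 0.74). At4g14090 averaged 9.12 in both genotypes (interval of the difference -1.04 to 1.04). The intervals leave room for differences of up to about 2-fold in DFR and At4g14090 at this number of arrays.

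At 120 h, 3 of the 4 genes were lower on the arrays labelled vte2 than on those labelled Col, where 3.09% of all probe sets were lower. DFR averaged 8.81 ± 0.46 on the arrays labelled vte2 and 10.22 ± 0.12 on those labelled Col (log2, SD, n = 3 each), a difference of -1.40 (SE 0.28, limma adjusted p = 0.00733) or 2.65-fold. UF3GT averaged 8.03 ± 0.37 on the arrays labelled vte2 and 9.56 ± 0.08 on those labelled Col, a difference of -1.54 (SE 0.26, adjusted p = 0.00235). AT5MAT averaged 4.89 ± 0.35 on the arrays labelled vte2 and 6.46 ± 0.12 on those labelled Col, a difference of -1.58 (SE 0.16, adjusted p = 5.21e-05), or 2.98-fold. The 3 differences were close to each other in size and their intervals overlapped. The study cites earlier work in which anthocyanins build up in source leaves of LT-treated vte2. It also describes vte2 plants as purple after prolonged LT treatment, longer than that of the arrays. The labelled direction here is the opposite one, in RNA at 120 h rather than in pigment at later times, and its relation to the pigment was not tested.

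At4g14090 averaged 8.72 ± 0.45 on the arrays labelled vte2 and 10.07 ± 0.04 on those labelled Col at 120 h, a difference of -1.34 (SE 0.49) that did not pass the test (limma adjusted p = 0.136). Its arrays did not overlap, as for 18.2% of all probe sets in this direction. The spread pooled over all groups for At4g14090 holds its wide 0 h arrays, with an SD of 1.14 in vte2 and 0.98 in Col. Without both replicate 3 arrays at 0 h the same difference passed (adjusted p = 9.86e-04), as it did without replicate 3 of vte2 at 0 h alone (adjusted p = 0.0398) and with the 6 arrays at 120 h alone (adjusted p = 3.67e-04). Of all probe sets, 6.74% were lower without both replicate 3 arrays and 12.6% with the 6 arrays alone. All 4 differences change sign, and keep their size, if the labels at 120 h are exchanged.

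**Figure D2:**
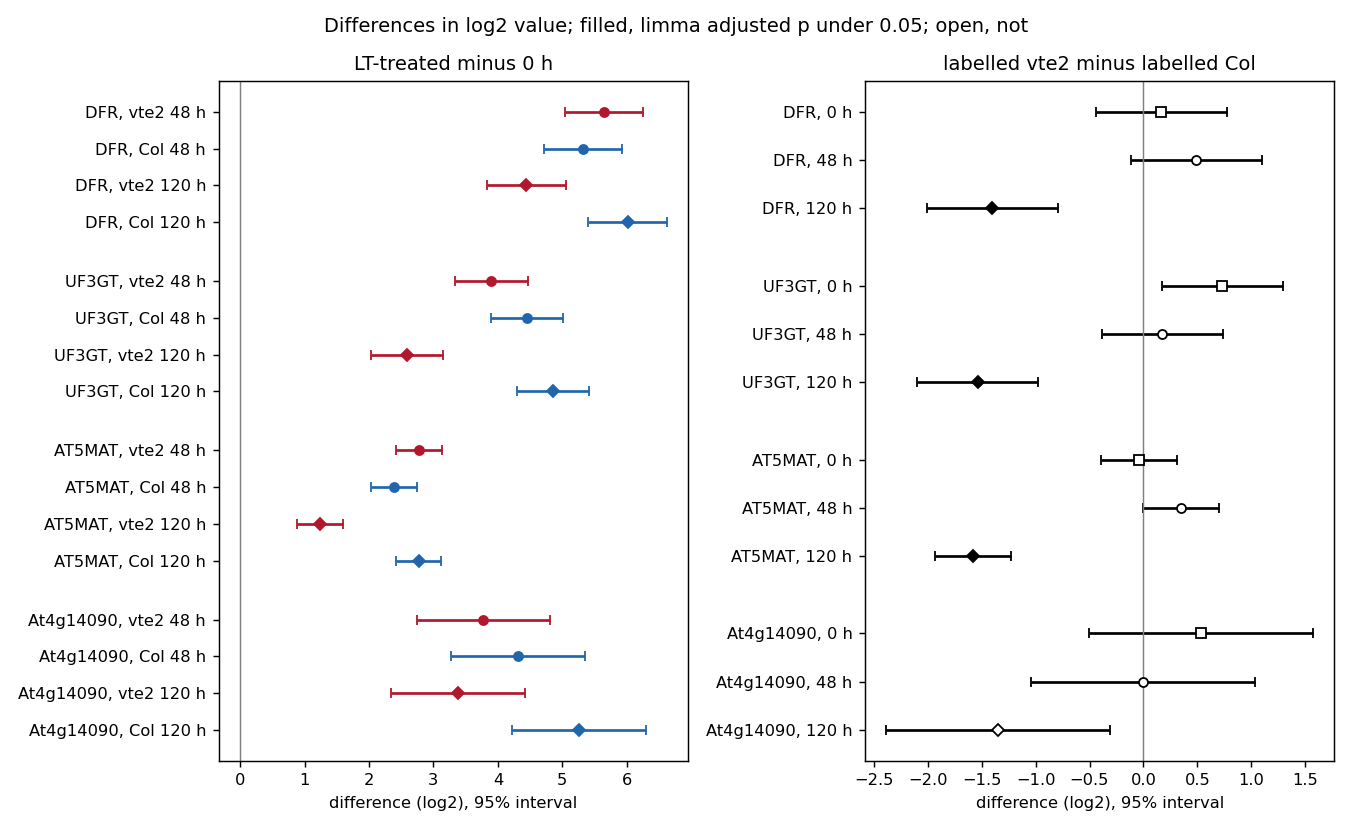
Differences in log2 value (x axis, with 95% intervals from limma) for each enzyme: left, LT-treated minus 0 h arrays at 48 and 120 h (circles, 48 h; diamonds, 120 h), with red for arrays labelled vte2 and blue for those labelled Col; right, arrays labelled vte2 minus those labelled Col at 0, 48 and 120 h (squares, circles and diamonds). All 16 LT differences lie right of 0, and on the right side the 120 h differences of DFR (-1.40), UF3GT (-1.54) and AT5MAT (-1.58) are the ones that passed the test (filled).

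Whether LT treatment changed a gene more under one label than under the other was tested as a difference between the changes. From 0 to 48 h none of the 4 genes differed in this way (0 of 4, also at an unadjusted p under 0.05; 0.0526% of all probe sets passed in limma), with values from -0.55 for UF3GT to 0.39 for AT5MAT. From 0 to 120 h the rise was smaller on the arrays labelled vte2 for UF3GT, by -2.27 (log2, SE 0.37, limma adjusted p = 0.00481), and for AT5MAT, by -1.53 (SE 0.23, adjusted p = 0.00283), where 1.04% of all probe sets passed in this direction. DFR had -1.57 (adjusted p = 0.0576) and At4g14090 -1.88 (adjusted p = 0.197). Without both replicate 3 arrays at 0 h, where 3.43% of all probe sets passed in this direction, DFR had -1.03 (adjusted p = 0.0701) and At4g14090 passed with -1.83 (adjusted p = 0.00610). UF3GT had the smaller value of -1.85 in this fit and still passed. With single arrays left out, DFR passed without replicate 1 of vte2 at 0 h (-1.83, adjusted p = 0.0204) or without replicate 2 labelled vte2 at 120 h (-1.84, adjusted p = 0.0276), and At4g14090 passed without replicate 3 of Col at 0 h (-2.44, adjusted p = 0.0345). From 48 to 120 h the changes differed for AT5MAT (-1.92, SE 0.23, limma adjusted p = 2.08e-04), DFR (-1.89, SE 0.40, adjusted p = 0.0105) and UF3GT (-1.71, SE 0.37, adjusted p = 0.0121), against 2.59% of all probe sets, and At4g14090 had -1.34 (adjusted p = 0.360). At4g14090 did pass without both replicate 3 arrays at 0 h (adjusted p = 0.0114), where 5.95% of all probe sets passed in this direction, and with only the arrays compared (adjusted p = 0.00354), where 8.5% did. The comparisons from 48 to 120 h and from 0 to 120 h share the 120 h arrays.

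The order of the 6 group means was nearly the same for DFR, UF3GT and AT5MAT. The arrays labelled Col at 120 h were highest, then vte2 at 48 h, Col at 48 h, the arrays labelled vte2 at 120 h and the 0 h arrays. Neighbours in this order often overlapped. For DFR the arrays labelled Col at 120 h overlapped with vte2 at 48 h, and Col at 48 h overlapped with those labelled vte2 at 120 h. For UF3GT and AT5MAT the arrays labelled vte2 at 120 h were separate both from the 48 h arrays above them and from the 0 h arrays below them. At4g14090 differed in that only the arrays labelled Col at 120 h were separate from the other LT-treated groups, while vte2 at 48 h, Col at 48 h and the arrays labelled vte2 at 120 h overlapped. In all 4 genes the vte2 and Col arrays at 0 h overlapped with each other. Separate groups were common among all probe sets. The arrays labelled vte2 at 120 h lay wholly above vte2 at 0 h for 18.3% of them. Those labelled Col at 120 h lay wholly above Col at 48 h for 23.5%, and above those labelled vte2 at 120 h for 18.2%. For the other pairs named here the share is not given, so their separation is only a description.

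In 2 of the 4 LT-treated groups the 4 genes also varied together among the arrays. On the arrays labelled vte2 at 120 h, replicate 2 was the highest for 4 of 4 genes, by 0.38 to 0.54 above the mean of its group. In Col at 48 h replicate 1 was the lowest for 4 of 4, at -0.33 to -0.19 from its mean. In vte2 at 48 h and on the arrays labelled Col at 120 h, no array was the highest or the lowest for all 4. Over the 12 LT-treated arrays, the correlation of deviations from the group means was 0.909 between UF3GT and At4g14090, the closest pair, and 0.575 between AT5MAT and At4g14090, the least close. At 0 h the values were more mixed: over the 6 untreated arrays, DFR and UF3GT had a correlation of 0.869, AT5MAT and UF3GT one of -0.857, and At4g14090 followed replicate 3. These values are descriptions, since genes measured on the same array share its RNA, labelling and normalization, and few arrays lie behind them. The median SD of the 4 genes was 0.552 in vte2 and 0.454 in Col at 0 h, against 0.176 in vte2 and 0.222 in Col at 48 h, and at 120 h it was 0.412 on the arrays labelled vte2 and 0.0956 on those labelled Col. The median SD of all probe sets was 0.112 and 0.107 on the arrays labelled vte2 and Col at 120 h, so the spread of these genes under the vte2 label was wide for that group.

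**Figure D3:**
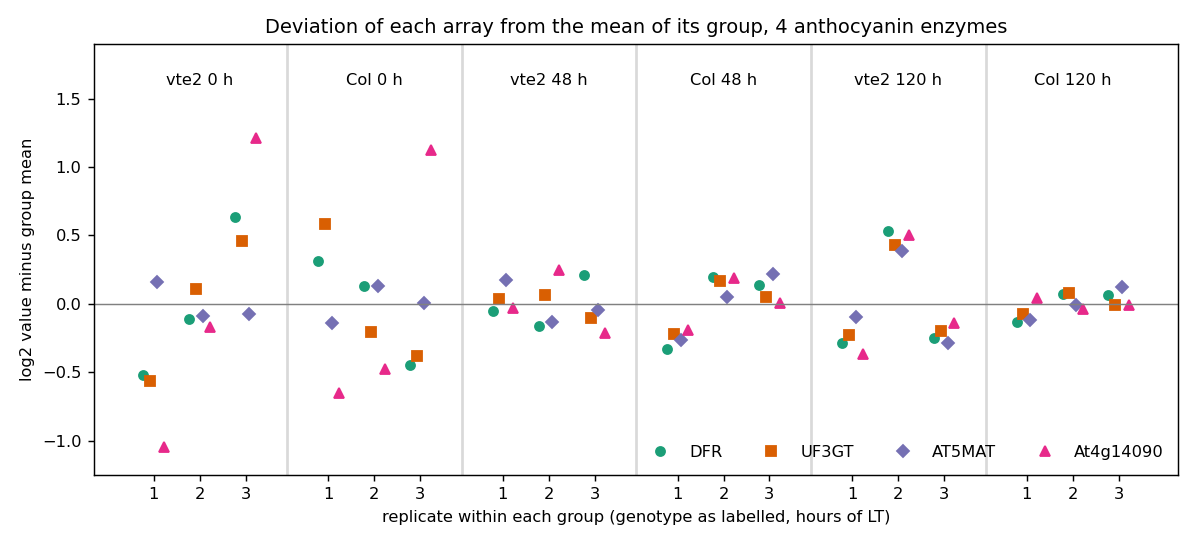
Deviation of each array from the mean of its group (log2, y axis) for the 4 enzymes, by group and replicate (x axis). All 4 symbols move together for replicate 1 of Col at 48 h (-0.33 to -0.19) and replicate 2 labelled vte2 at 120 h (0.38 to 0.54), while at 0 h At4g14090 is high in replicate 3 of both genotypes.

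Other genes of the pathway were taken from a list of 52 that cover the entry from phenylalanine, the early flavonoid steps, the flavonol, anthocyanin and proanthocyanidin branches and their regulators, of which the probe table names 7. They are CHIL, a chalcone isomerase-like protein of the early steps; UGT78D1, UGT78D3 and UGT89C1, which attach sugars to flavonols; UGT78D2, a flavonoid 3-O-glucosyltransferase that acts on both anthocyanidins and flavonols; BAN, the anthocyanidin reductase of the proanthocyanidin branch in seed coats; and TRY, a single-repeat MYB protein known for repressing trichome fate. None of the listed activators was among the named genes, so they are not analysed here.

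At 48 h against 0 h, 3 of these 7 rose in vte2 and none fell, and in Col 3 rose and 1 fell. Of all probe sets, 17.2% rose in vte2 and 16.1% in Col. CHIL was 2.49 higher in vte2 (log2, limma adjusted p = 0.00146) and 2.04 higher in Col (adjusted p = 0.00686). UGT78D3 was 2.63 higher in vte2 and 2.65 higher in Col, and UGT89C1 was 2.47 higher in vte2 and 1.83 higher in Col. All 3 rises were smaller than those of DFR, UF3GT and At4g14090 in the same genotype. In vte2 they were also below that of AT5MAT (2.78). In Col, UGT78D3 rose more than AT5MAT (2.38), and CHIL and UGT89C1 rose less. TRY fell by 2.19 in Col (limma adjusted p = 0.0329) and had -1.57 in vte2 (adjusted p = 0.118). BAN lay between 3.41 and 3.95 on all arrays and passed no test. UGT78D3 averaged 3.63 in vte2 and 3.86 in Col at 0 h, within that range, so the size of its differences from 0 h is uncertain. With all arrays, the median over the 7 genes was 1.80 in vte2 and 1.25 in Col, against 3.84 and 4.38 for the 4 enzymes.

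UGT78D2 had log2 values of 10.25, 10.07 and 10.03 in vte2 at 48 h, against 7.41, 6.64 and 10.90 in vte2 at 0 h. In Col it had 9.82, 10.18 and 9.79 at 48 h, against 7.34, 7.54 and 11.17 at 0 h. The untreated replicate 3 arrays of both genotypes were thus above the treated arrays, and the other untreated arrays were below them. With all arrays UGT78D2 had 1.80 in vte2 (limma adjusted p = 0.167) and 1.25 in Col (adjusted p = 0.351), and without both replicate 3 arrays at 0 h it was 3.09 higher in vte2 (adjusted p = 7.73e-09) and 2.49 higher in Col (adjusted p = 9.02e-08). Without those arrays 5 of the 7 genes rose in vte2 and 5 in Col, where 20.5% and 19.1% of all probe sets rose, with UGT78D1 the other one gained (1.01 in vte2 and 1.45 in Col). In vte2, CHIL (3.16), UGT89C1 (3.39) and UGT78D2 then rose more than AT5MAT (2.74), and UGT78D3 (2.58) and UGT78D1 rose less. In Col, UGT78D3 (2.66) and UGT78D2 then rose more than AT5MAT (2.39), and CHIL, UGT89C1 and UGT78D1 rose less. None of them rose as much as DFR, UF3GT or At4g14090 in the same fit and genotype. TRY was also high in the untreated replicate 3 arrays, by 3.37 in vte2 and 2.25 in Col, and without them it had -0.45 in vte2 (adjusted p = 0.153) and -1.44 in Col (adjusted p = 1.96e-04).

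Between 48 and 120 h the flavonol glycosyltransferase UGT78D3 fell by 1.94 on the arrays labelled vte2 (log2, limma adjusted p = 2.15e-05) and fell by 1.70 on those labelled Col (adjusted p = 1.68e-04). The 4 enzymes had differences of -1.54 to -0.40 on the arrays labelled vte2 and of 0.39 to 0.95 on those labelled Col. UGT78D3 was the 1 gene of the 7 that passed in either of these comparisons with all arrays, where 11% of all probe sets fell under the vte2 label. Without both replicate 3 arrays at 0 h, 2 were higher and 2 lower on the arrays labelled vte2, with UGT78D2 at -0.68 (adjusted p = 0.00563), TRY at 0.60 (adjusted p = 0.0442) and UGT78D1 at 0.56 (adjusted p = 0.0446), and TRY was also higher on those labelled Col, by 1.15 (adjusted p = 0.00104). Without those arrays 19% of all probe sets rose and 14.7% fell under the vte2 label, and 14.7% rose and 11.8% fell under the Col label. With only the arrays compared, 2 were higher and 4 lower on the arrays labelled vte2, and 1 was higher and 2 lower on those labelled Col. In that fit 22.2% of all probe sets rose and 16.8% fell under the vte2 label, and 15.3% rose and 12.3% fell under the Col label. At 120 h against 0 h, 14% of all probe sets were higher under the vte2 label and 16.3% under the Col label. Of the 7 genes, 3 were higher on the arrays labelled vte2 (CHIL by 1.92, UGT78D3 by 0.69 and UGT89C1 by 1.93) and 3 on those labelled Col (CHIL by 1.59, UGT78D3 by 0.95 and UGT78D1 by 1.29). Without both replicate 3 arrays at 0 h these counts were 4 and 5, where 19.4% of all probe sets were higher under the vte2 label and 20.9% under the Col label, and UGT78D3 no longer passed under the vte2 label (0.64, adjusted p = 0.0741).

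With all arrays, 0 of the 7 genes passed between the genotypes at 0, 48 or 120 h. Of all probe sets, 0.00877% passed at 0 h, 0.338% passed at 48 h and 3.09% were lower under the vte2 label at 120 h. At 120 h 3 of the 4 enzymes passed, and the difference of this count from 0 of the 7 was not tested. The difference at 120 h between arrays labelled vte2 and those labelled Col ran from -0.77 for UGT78D2 (limma adjusted p = 0.822) to 0.07 for BAN, with a median of -0.26. UGT78D3 had -0.49 (adjusted p = 0.300) and CHIL -0.21. The standard errors of these genes, 0.12 to 0.95, were wider for those that shifted in the untreated replicate 3 arrays. With the 6 arrays at 120 h alone, 3 of the 7 were lower on the arrays labelled vte2, as were 12.6% of all probe sets, and without both replicate 3 arrays at 0 h, 1 was, as were 6.74% of all probe sets. At 0 h, without the same arrays, UGT89C1 had a vte2 minus Col difference of -1.58 that passed (adjusted p = 0.00307), and 2.58% of all probe sets passed in this direction.

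**Figure D4:**
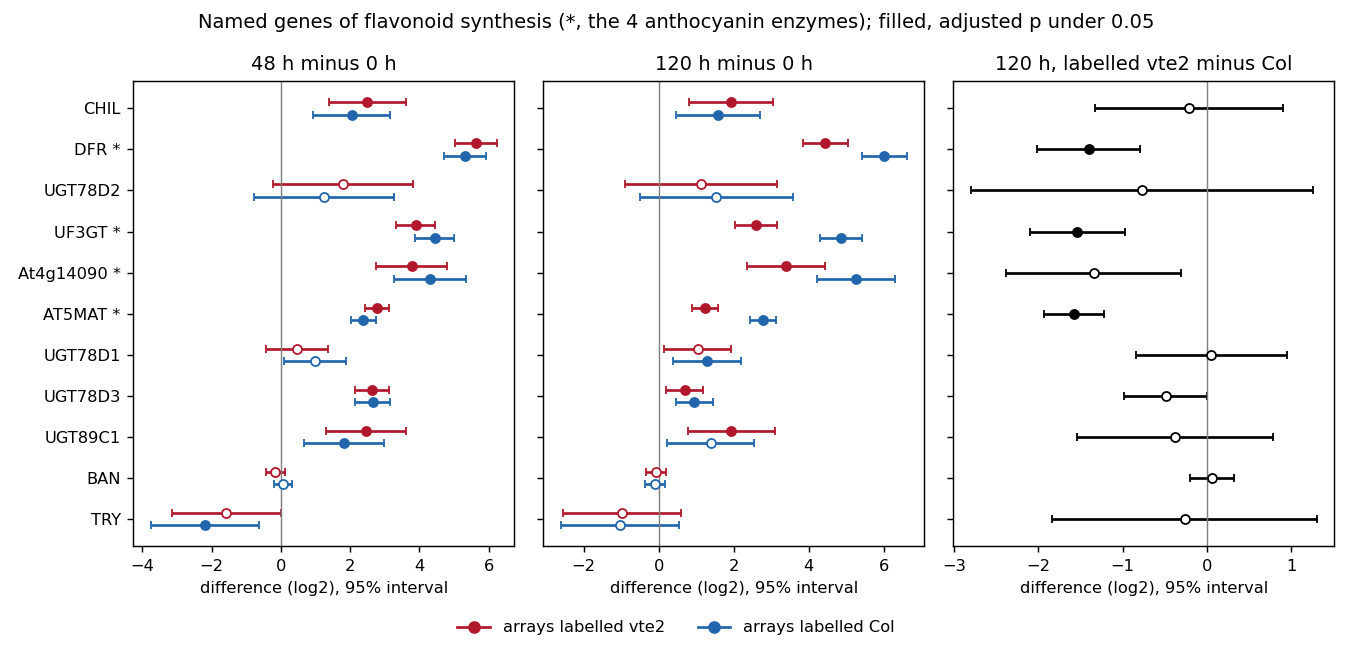
Differences in log2 value (x axis, with 95% intervals from limma) for the 4 enzymes (asterisks) and the 7 other named genes of the list, for 48 h minus 0 h, 120 h minus 0 h and arrays labelled vte2 minus those labelled Col at 120 h; red, arrays labelled vte2; blue, arrays labelled Col; filled, adjusted p under 0.05. The 4 enzymes rose at both times under both labels, and DFR, UF3GT and AT5MAT are the genes of this plot that passed in the right panel.

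Genes with the most similar profile were found by Pearson correlation over the 18 arrays with the mean of the 4 enzymes, among 3499 genes whose group means spanned at least 1 log2 unit. The 10 closest had r of 0.967 to 0.984. They were petD (0.984) and petN (0.972), chloroplast genes for subunits of the cytochrome b6f complex, AT1G52770 (0.982), AT4G14420 (0.981), SAPX (0.977), a chloroplast ascorbate peroxidase, AT1G16850 (0.974), GFAT (0.974), AT2G17280 (0.970), AT3G14740 (0.969) and AT2G23910 (0.967). None of the other pathway genes was among them: CHIL had r of 0.841 (rank 528), UGT89C1 0.817 (rank 631) and UGT78D3 0.747 (rank 849). The arrays fall into untreated and LT-treated ones, and r is a description of shape over them. With Spearman correlation 0 of the 10 were the same genes, and without both replicate 3 arrays at 0 h 6 of the 10 were.

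AT1G16850 and AT2G23910 were the 2 of these 10 with the largest differences between 48 and 0 h, and were chosen for this after their values were seen. AT1G16850 averaged 10.47 in vte2 and 10.35 in Col at 48 h, 9.18 and 10.20 on the arrays labelled vte2 and Col at 120 h, and 5.04 in vte2 and 5.28 in Col at 0 h. AT2G23910 averaged 8.40 in vte2 and 8.18 in Col at 48 h, 6.32 and 7.59 on the arrays labelled vte2 and Col at 120 h, and 3.33 in vte2 and 3.55 in Col at 0 h. All 10 were lower on the arrays labelled vte2 than on those labelled Col at 120 h, by -1.27 to -0.37, a likeness to the 4 enzymes that the choice by correlation favours.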

How the data were processed

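RNA from leaves of vte2 and Col at 0, 48 and 120 h of LT treatment was hybridized to 18 Affymetrix ATH1 arrays, 3 per group. The authors made the deposited log2 values from perfect match probes with RMA (affy package: background adjustment, quantile normalization, summarization), and all 22810 probe sets were used as deposited. Group means were estimated here for the 6 groups in one linear model by limma 3.58.1 (R 4.3.3), with 12 residual degrees of freedom and moderated variances. Within each of 12 comparisons p-values were adjusted after Benjamini and Hochberg, and the threshold was 0.05. Intervals are 95% intervals from this model. The steps were tested on simulated data. Precision is limited by the number of arrays.

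By the probe table, 13513 probe sets stand for 1 gene and 503 for several, while 8794 are unlisted. Named genes were the 4 enzymes, all genes of the pathway and marker lists that the table names, and the 10 most similar genes; of several probe sets for a gene, the one with the highest mean was used. Similarity was measured to the mean of the centred values of the 4 enzymes. The members, lists, tests and alternatives were chosen with earlier results of these data known.

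The replicates are described as independent, and no shared batch is named. Deviations from the group means were correlated between arrays of vte2 and Col with the same number. The correlations were 0.397 to 0.791 at 0 h, 0.054 to 0.302 at 48 h and -0.151 to 0.0096 at 120 h. Between arrays with different numbers they were -0.699 to 0.496 at 0 h, -0.300 to 0.152 at 48 h and -0.120 to 0.131 at 120 h. At 0 h only the replicate 3 arrays (0.791) thus stood out as a pair. At 48 h the arrays of replicate 1 (0.205) and replicate 3 (0.302) lay above the range of different numbers. The main fit used no pairing, and a replicate block was an alternative.

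Alternatives were a fit to only the arrays compared, a replicate block at each time, cyclic loess, median centring, array weights, a trended robust prior, a filter of the dimmest 40% of probe sets, and fits that left out both replicate 3 arrays at 0 h or each array in turn. Genotype labels exchanged at 120 h were an alternative chosen after seeing the data.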

Additional observations from a re-analysis of the deposited data

Results flagged for a closer look

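The change with LT treatment differed between arrays labelled vte2 and those labelled Col for 3 of the 4 enzymes in limma's test of the difference between the changes, in 5 cases. Of all probe sets, 1.04% passed in the same direction from 0 to 120 h and 2.59% from 48 to 120 h. From 0 to 120 h, UF3GT rose less on the arrays labelled vte2, by -2.27 (log2, SE, standard error, 0.37, adjusted p = 0.00481), as did AT5MAT, by -1.53 (SE 0.23, adjusted p = 0.00283), whose 0 h level was not shown to be above background. The UF3GT value includes its vte2 minus Col difference of 0.73 at 0 h. Without both replicate 3 arrays at 0 h it was -1.85 and still passed. From 48 to 120 h, the difference in change was -1.89 for DFR (SE 0.40, adjusted p = 0.0105), -1.71 for UF3GT (SE 0.37, adjusted p = 0.0121) and -1.92 for AT5MAT (SE 0.23, adjusted p = 2.08e-04). All 5 values rest on the genotype labels at 120 h, and all 5 change sign when these are exchanged. AT5MAT from 0 to 120 h then passed with the opposite sign (limma adjusted p = 0.00230). The others did not pass, at limma adjusted p of 0.0520 to 0.658. Groups of 3 arrays are too small for a test of single outlying arrays.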

How the results depend on the processing

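For single enzymes, 1207 of the values under the alternatives that kept the deposited labels were on the same side of the threshold with the same sign, 27 passed the test newly, 14 changed sign and 0 of the calls was lost. The number of enzymes that passed between 48 and 120 h on the arrays labelled Col was 0 with all arrays, 3 with only the arrays compared, 1 with the replicate number as a block at each time (replicate block), 4 with array weights and 2 without both replicate 3 arrays at 0 h; the share of all probe sets that rose was 9.48%, 15.3%, 13.6%, 23.1% and 14.7% in the same order. At4g14090 between arrays labelled vte2 and Col at 120 h also passed with the replicate block (-1.34, adjusted p = 0.00153 from limma) and with array weights (adjusted p = 1.84e-04), where 5.59% and 13.3% of all probe sets were lower. Its change from 0 to 120 h differed between labels with the block (-1.88, adjusted p = 0.00418) and with array weights (-1.97, adjusted p = 0.0330), as did that from 48 to 120 h with the block (adjusted p = 0.00958) and with array weights (adjusted p = 0.00180). For DFR the change from 0 to 120 h differed with median centring (adjusted p = 0.0435) and without the dimmest 40% of probe sets (adjusted p = 0.0450). The block ended no call.

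The sign changes were all in differences that passed no test. At 0 h, vte2 minus Col was 0.012 for AT5MAT with median centring, and for DFR it was -0.12 with array weights and -0.37 without both replicate 3 arrays. At 48 h At4g14090 had 0.0081 with cyclic loess, 0.0085 with median centring and 0.19 with array weights. With each array left out in turn, these 0 h differences ran from -0.15 to 0.43 for DFR, from -0.12 to 0.023 for AT5MAT and from -0.073 to 1.1 for At4g14090. That of At4g14090 at 48 h ran from -0.12 to 0.11, and its difference in change from 0 to 48 h from -1.1 to 0.072.

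Exchanged labels at 120 h turned every comparison that sets 120 h arrays against other LT-treated arrays or the labels against each other. Arrays then called Col fell between 48 and 120 h for 2 enzymes, where 8.43% of all probe sets fell. The values were -0.71 for DFR, -1.13 for UF3GT, -1.19 for AT5MAT and -0.40 for At4g14090. Those then called vte2 changed in 0, with 0.20, 0.23, 0.040 and 0.95 in the same gene order. At 120 h vte2 minus Col was 1.40 for DFR, 1.54 for UF3GT, 1.58 for AT5MAT and 1.34 for At4g14090, and 3 passed, as did the same 3.09% of all probe sets as before, now higher. The difference in change from 0 to 120 h was 1.24, 0.81, 1.62 and 0.81 in that gene order, and that of AT5MAT passed (limma adjusted p = 0.00230). From 48 to 120 h it was 0.92, 1.36, 1.23 and 1.35, and 0 passed in limma. Of the 10 most similar genes, 0 were shared with Spearman correlation and 6 without both replicate 3 arrays at 0 h; the cause was not tested for any of these.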
